A study of Mus musculus with 6 samples.

Results

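The genes described here encode the initiation and elongation factors of cytoplasmic translation, with the proteins that bind or modify them. They were taken by name from the deposited gene table: symbols beginning with Eif1 to Eif6, Eef1 or Eef2, without the Eif2ak kinases and the names marked -ps, and with a count above 0 in at least 1 library. Of 55401 genes listed, 68 names matched and 65 had counts. Eif4e1b, Eif4a3l2 and the noncoding Eif2c5 were listed at 0 in every library. The libraries came from the livers of 6 male mice, 3 of the genotype Prdx1(lox/lox), called control, and 3 of the genotype Prdx1(lox/lox);Alb-cre, called knockout. All mice carried the floxed Prdx1 alleles, began at an age of 8 weeks and spent 5 weeks on what the labels abbreviate as MCD, which in liver work usually means a diet deficient in methionine and choline. Alb-cre expresses Cre recombinase from the albumin promoter, which is active in hepatocytes, and Prdx1 encodes peroxiredoxin 1, an enzyme that reduces peroxides. The controls carried no Cre, so the transgene and the loss of Prdx1 cannot be told apart, and no mice off the diet were included.

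Translation of most cellular mRNAs begins when eIF4F, made of the cap-binding eIF4E, the scaffold eIF4G and the helicase eIF4A, binds the capped 5′ end. It recruits the small ribosomal subunit, which carries eIF1, eIF1A, eIF3 and the ternary complex of eIF2, GTP and initiator tRNA. eIF2B reloads eIF2 with GTP and is blocked when eIF2 is phosphorylated under stress, while the eIF4E-binding proteins hold eIF4E away from eIF4G until mTORC1 phosphorylates them. eIF5B then joins the large subunit, eEF1A delivers each aminoacyl-tRNA and eEF2 moves the ribosome along the mRNA. The liver makes most plasma proteins and has a high rate of protein synthesis.

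Deposited counts totalled between 58790874 and 78291273 per library, and the 65 genes took between 1.309% and 1.499% of them. Prdx1 stood at 626 ± 49.5 CPM (counts scaled to library size with the TMM factors described below) in controls and 88.3 ± 19.6 CPM in knockouts (SD, n = 3 each). The log2 fold change was -2.82 ± 0.17 (SE), or -2.45 with library sizes alone. The cell makeup read from markers also differed between the groups, in sums of this CPM that were not computed with library sizes alone. The summed CPM of 10 hepatocyte markers, 9 of which fell (8 with library sizes alone), ranged from 98740 to 120700 in controls and from 56810 to 71480 in knockouts. The 8 macrophage markers all rose, from a sum of 804 to 950 CPM to a sum of 2180 to 2253 CPM. Of 8 stellate cell markers 7 rose (8 with library sizes alone), from 629 to 691 CPM to 1868 to 2143 CPM, and the 7 ductular cell markers all rose, from 59.2 to 75.2 CPM to 1048 to 1232 CPM. Sums for 6 endothelial markers, of which 2 rose and 1 fell (3 and 0 with library sizes alone), were 355 to 377 CPM in controls and 328 to 360 CPM in knockouts. In 6 lymphocyte markers, 3 of which rose, they were 41.9 to 43.1 and 67.7 to 80.4 CPM. Of 4 neuronal markers, 2 rose and 1 fell (2 and 0 with library sizes alone), with sums of 15.4 to 20.9 and 9.69 to 16.1 CPM. Of 4 striated muscle markers, Ckm and Myh4 were at 0 in every library and 3 were too low to test. The remaining 1 did not pass with TMM factors and rose with library sizes alone, and the sum over the list was 0 to 0.143 CPM in controls and 0.441 to 0.928 CPM in knockouts, without overlap. In these bulk samples, fewer cells of a type and less RNA per cell cannot be told apart, and the part of these shifts in the results below was not tested.

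How the libraries were scaled set the direction of many of the values below. TMM factors, which assume that most genes do not differ, were 0.869 to 0.887 in controls and 1.10 to 1.16 in knockouts. With them the median log2 fold change of all 18931 tested genes was 0.05, and with library sizes alone it was 0.41. Fold changes and counts of called genes are therefore given with TMM factors first and mostly with library sizes alone beside them, while CPM values are TMM-scaled. Ratios and shares of genes within a library do not depend on this choice.

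With TMM factors, 27 of the 64 tested factor genes were lower in knockouts, 2 were higher and 35 did not pass an adjusted p of 0.05 in edgeR's quasi-likelihood test. That is 42.2% lower, where 18.0% of all tested genes were lower and 19.9% higher. The median log2 fold change of the 64 genes was -0.34, and 58 of the 64 lay below the median of all genes. Library sizes alone gave 6 lower and 15 higher, where 6.60% of all tested genes were lower and 34.1% higher, and the median of the factor genes was 0.03. The factor genes' median lay 0.38 below that of all genes under both scalings (a log2 difference of -0.38). A change of scaling moves all genes by nearly the same amount, so this match was built in. In TMM-scaled CPM, the groups did not overlap for 35 factor genes that were lower and 3 that were higher, where 24.2% and 28.8% of all tested genes were lower and higher without overlap. Eif4a3l1, a relative of the helicase gene Eif4a3, was at or below 0.143 CPM in every library and was not tested.

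**Figure D1:**
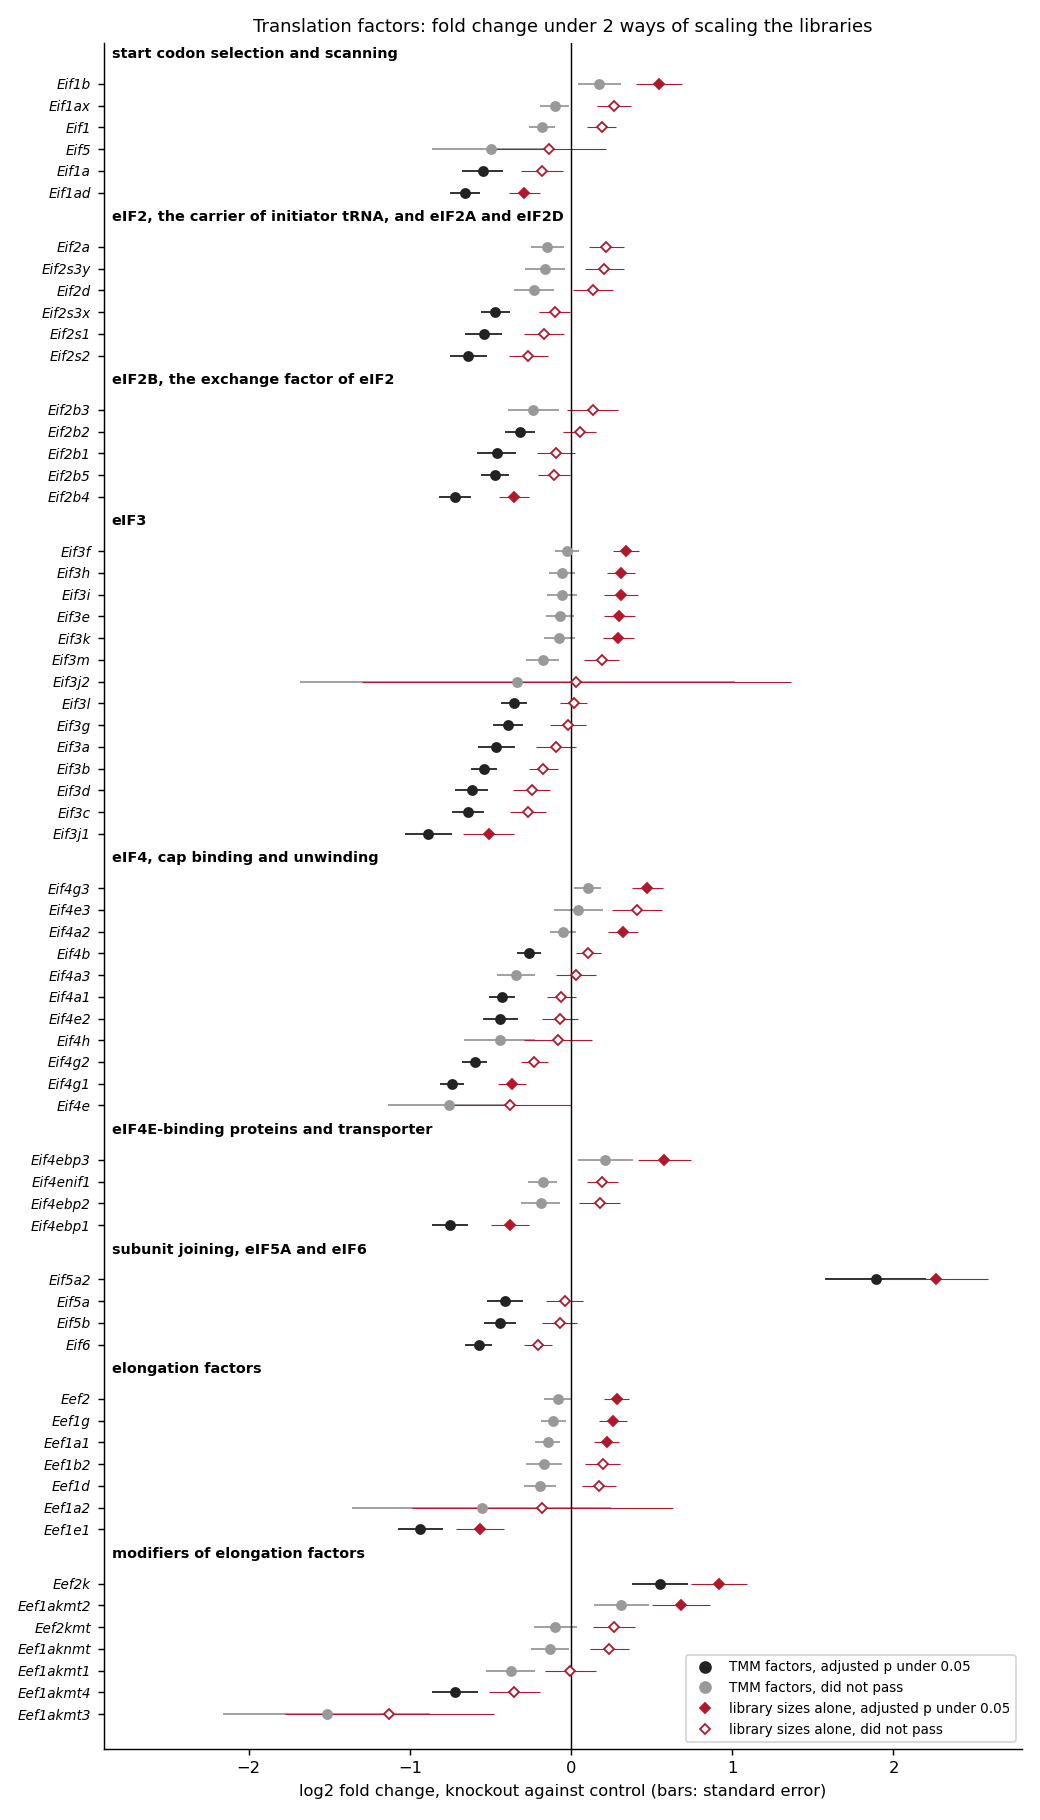
Log2 fold change of the 64 tested factor genes, knockout against control, by role (x axis), with TMM factors (circles) and with library sizes alone (diamonds), and bars of 1 standard error. The diamonds lie to the right of the circles throughout; 8 genes were called in the same direction under both scalings.

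A set of 8 genes had the same call under both scalings: Eif4g1, Eif2b4, Eif3j1, Eif4ebp1, Eef1e1 and Eif1ad were lower, and Eif5a2 and Eef2k were higher. The lower ones are all the factor genes that were lower with library sizes alone (9.375%, beside 6.60% of all tested genes). The higher ones are all that were higher with TMM factors (3.125%, beside 19.9% of all tested genes). The share of all tested genes called alike under both scalings was not computed. Eif4g1 (chromosome 16, 20668313 to 20692884) encodes the main eIF4G scaffold. Its level was 750.3, 745.7 and 746.5 CPM in controls and 468.5, 452.2 and 423.4 CPM in knockouts. Every knockout lay far below every control, at 59.9% of the control mean. The log2 fold change was -0.74 ± 0.08 (SE, adjusted p = 0.000361), and -0.37 with library sizes alone (adjusted p = 0.0109).

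Eif2b4 (chromosome 5, 31187558 to 31193430) encodes the delta subunit of eIF2B. It stood at 55.8, 55.0 and 50.3 CPM in controls and 31.0, 30.8 and 36.0 CPM in knockouts. The groups did not overlap, and the log2 fold change was -0.72 ± 0.10 (adjusted p = 0.00125), or -0.36 with library sizes alone. Eif4ebp1 (chromosome 8, 27260329 to 27276674), the eIF4E-binding protein known best as an mTORC1 substrate, stood at 81.2, 100.6 and 104.0 CPM in controls. In the knockouts it stood at 58.7, 57.1 and 54.1 CPM, close together and all below the lowest control. Its log2 fold change was -0.75 ± 0.11 (adjusted p = 0.00167), or -0.38 with library sizes alone.

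Eef1e1 (chromosome 13, 38644207 to 38659058), named for its likeness to the eEF1 family, encodes a scaffold protein of the multi-tRNA synthetase complex. Its CPM was 14.9, 16.7 and 15.2 in controls and 7.59, 9.35 and 7.51 in knockouts, 52.2% of the control mean. The log2 fold change was -0.94 ± 0.14 (adjusted p = 0.00174), or -0.56 with library sizes alone. Eif1ad (chromosome 19, 5366741 to 5371526), a gene with an eIF1A-like domain, had 30.6, 33.9 and 32.3 CPM in controls. The knockouts had 19.9, 20.3 and 21.1 CPM, a narrow range below all controls, with a log2 fold change of -0.66 ± 0.09 (adjusted p = 0.00142), or -0.29 with library sizes alone.

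Eif3j1 (chromosome 2, 122028546 to 122056598) encodes the loosely bound eIF3j subunit. It stood at 123.4, 118.7 and 96.3 CPM in controls and 58.4, 72.4 and 52.4 CPM in knockouts, without overlap. The log2 fold change was -0.88 ± 0.15 (adjusted p = 0.00282), or -0.51 with library sizes alone. Eif3j2 is a near-identical copy whose reads the counting could divide with Eif3j1, and its values jumped between 0, 24.4 and 21.4 CPM in controls and 18.3, 1.94 and 16.1 CPM in knockouts. Summed over both copies, the level was 123.4, 143.1 and 117.7 CPM in controls and 76.8, 74.3 and 68.5 CPM in knockouts. The summed entry fell by 0.81 on the log2 scale (adjusted p = 0.000835). The Eif3j1 call held under 12 of 15 alternative settings, and those of the other lower genes in this group held under all 15.

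Eif5a2 (chromosome 3, 28781276 to 28798846) is the second gene for eIF5A, a hypusine-bearing factor that helps ribosomes past difficult peptide bonds. It was scarce in all livers, at 0.767, 0.855 and 0.907 CPM in controls and 4.04, 3.03 and 2.33 CPM in knockouts. The lowest knockout was still above the highest control, and the mean was 3.72 times the control mean. The log2 fold change was 1.89 ± 0.31 (adjusted p = 0.00271), or 2.26 with library sizes alone, and the call held under all 15 alternatives.

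Eef2k (chromosome 7, 120842831 to 120907450) encodes the calmodulin-dependent kinase that inactivates eEF2. Its CPM was 8.40, 12.1 and 13.0 in controls and 15.6, 16.5 and 16.9 in knockouts, without overlap. The log2 fold change was 0.55 ± 0.18 (adjusted p = 0.0404), or 0.92 with library sizes alone (adjusted p = 0.00426). This call did not survive leaving out control replicate 1 (adjusted p = 0.0668), control replicate 2 (0.0627), knockout replicate 1 (0.0790), knockout replicate 2 (0.101) or knockout replicate 3 (0.0960).

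**Figure D2:**
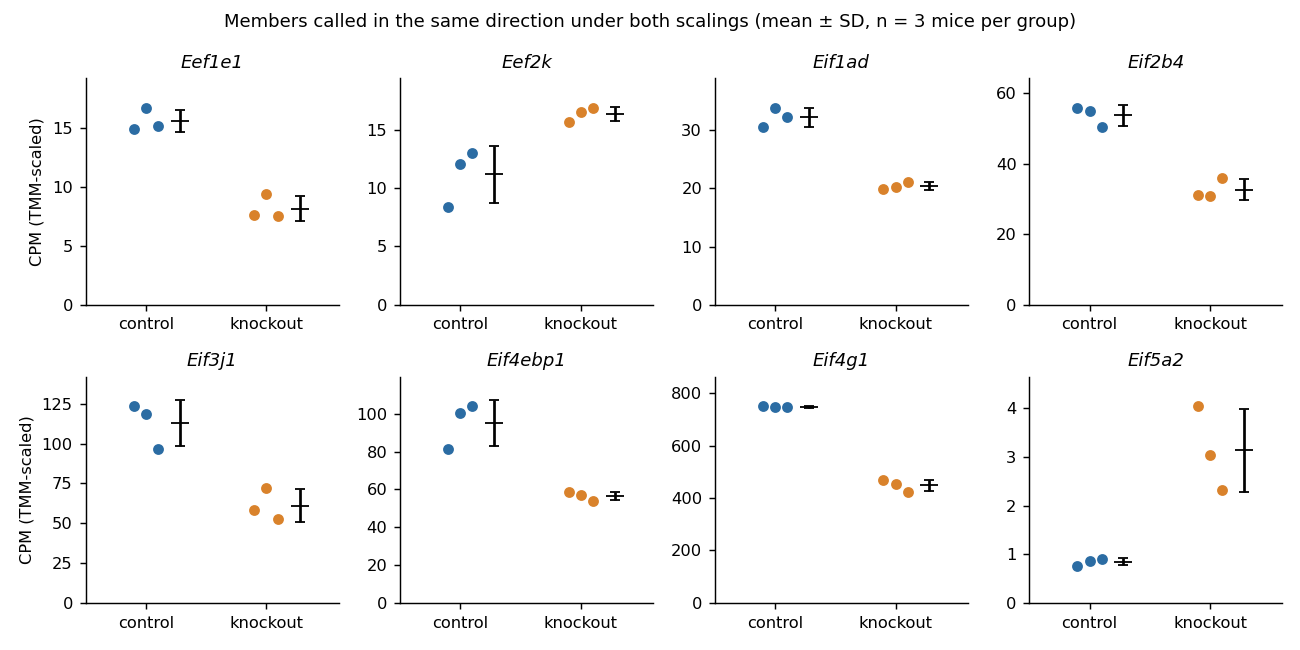
TMM-scaled CPM (y axis) of the 8 genes called in the same direction under both scalings, with 1 point per mouse and the mean ± SD of 3 mice beside it. In each panel the control and knockout points are separate; Eif4g1 falls from 747.5 to 448.0 CPM on average and Eif5a2 climbs from 0.843 to 3.13 CPM.

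Promoter sequence adds context for these genes. CACGTG is the palindromic E-box bound by MYC, MAX and other basic helix-loop-helix factors, and MYC is known to bind promoters of many translation genes. In RefSeq promoter windows of GRCm38.p6, reaching from 250 bases before to 50 after the annotated start, 50 of the 65 genes had at least 1 window. Of these, 14 (28%) held CACGTG, against 8.09% of 27025 genes with a window. That background includes genes too low in liver to test, and the share among tested genes was not computed. Among the 64 windows of factor genes, 16 (25%) held it, against 7.15% of all 32851 windows. It was found in 5 of 23 genes that fell, in 7 of 24 that did not pass and in both genes that rose. The core of the amino acid response element, TGATGNAA on either strand, was in 2 of 50 genes, Eef2k and Eif2s3x (4%, against 4.51% of all genes). These are matches of letters, and binding was not measured. The windows with 2 copies of CACGTG belonged to Eif5a2, Eif4g1 and Eif4e, and are shown because the first pair moved in opposite directions. The stretch around the copies is printed 5′ to 3′ on the plus strand, with CACGTG in capitals.
Eif5a2, chr3:28781105-28781195: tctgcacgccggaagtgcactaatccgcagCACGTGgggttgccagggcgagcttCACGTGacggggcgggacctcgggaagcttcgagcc
Eif4g1, chr16:20672643-20672750: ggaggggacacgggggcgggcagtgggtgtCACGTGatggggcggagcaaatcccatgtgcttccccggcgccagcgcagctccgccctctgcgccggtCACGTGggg
Eif4e, chr3:138527018-138527239: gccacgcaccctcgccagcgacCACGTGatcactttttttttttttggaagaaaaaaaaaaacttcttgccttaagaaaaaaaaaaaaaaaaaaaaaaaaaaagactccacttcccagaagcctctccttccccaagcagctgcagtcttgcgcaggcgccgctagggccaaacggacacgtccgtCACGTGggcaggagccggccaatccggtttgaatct
The copies begin at positions -142 and -117 from the start site (counted as 0) in Eif5a2, at -54 and 15 in Eif4g1, and at -228 and -64 in Eif4e. For Eif4g1 and Eif4e these are later start sites, inside deposited gene spans that begin at 20668313 and 138526179.

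Levels per length span more than 4 orders of magnitude in this gene set, as the ranked plot of FPKM shows. FPKM is the deposited unit, fragments scaled by gene length and library size, and it follows library sizes. Eef1a1, which encodes the main eEF1A, was highest at 1627 ± 56.4 FPKM in controls and 1870 ± 36.5 in knockouts. Eef2 was next at 570 ± 22.9 and 684 ± 28.9 FPKM, and Eif5a came after it at 134.5 ± 13.7 and 129.0 ± 15.8 FPKM. Eif1, Eif4g1 and Eef1g followed in controls at 82.6 ± 2.77, 82.4 ± 1.24 and 81.7 ± 3.47 FPKM and did not differ beyond their spread. Together Eef1a1 and Eef2 made up 58.0% to 59.1% of the summed FPKM of the 65 genes in controls and 61.2% to 63.3% in knockouts, without overlap. Without these genes, the rest took 0.681% to 0.711% of the counts in controls and 0.642% to 0.713% in knockouts, with overlap. Among the tested genes at the other end, Eef1a2, the muscle and neuronal eEF1A, was at 0.268 ± 0.222 and 0.234 ± 0.170 FPKM, and Eif5a2 at 0.133 ± 0.0114 and 0.641 ± 0.190 FPKM.

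**Figure D3:**
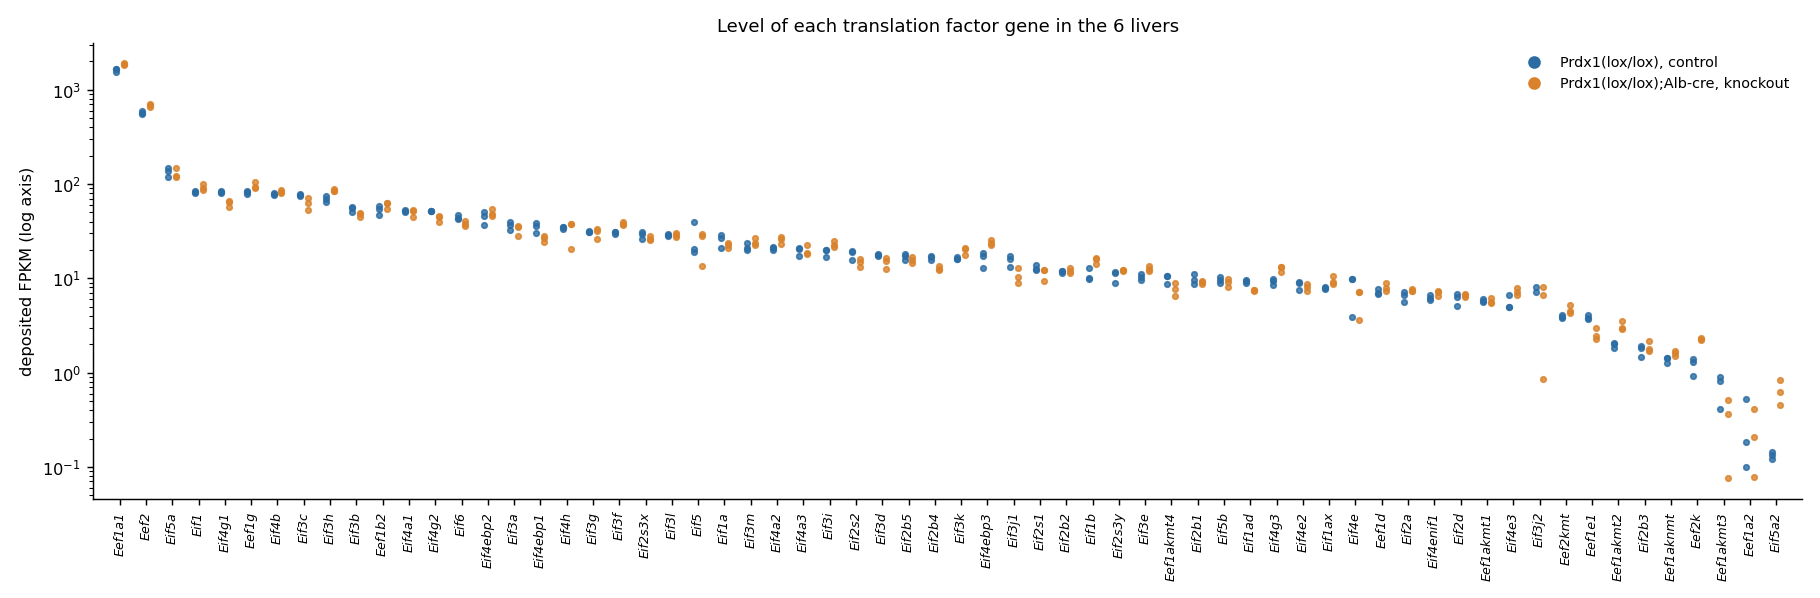
Deposited FPKM (y axis, log scale) of 64 factor genes ordered by control mean (x axis), with 1 point per mouse. Eef1a1 and Eef2 lie far above the rest, control and knockout points mostly sit side by side, and Eif4e, Eif5, Eif4h and Eif3j2 have scattered points; a value of 0 (Eif3j2, control replicate 1) and Eif4a3l1 are not drawn.

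Among 6 genes listed under start codon selection, with Eif1ad included by its name, 2 fell with TMM factors and 0 rose. Their median was -0.34. Library sizes alone gave 1 lower, which was Eif1ad, 1 higher and a median of 0.02. Counts here and for the roles below stand beside 18.0% of all tested genes lower and 19.9% higher with TMM factors. With library sizes alone these shares were 6.60% and 34.1%. Besides Eif1ad, Eif1a fell by 0.55 (adjusted p = 0.0121), from 137.3, 152.4 and 108.8 CPM to 89.7, 95.2 and 87.4 CPM, and was at -0.18 with library sizes alone. Eif1, which guards against starting at the wrong codon, was at 215 ± 5.50 CPM in controls and 190.1 ± 12.1 CPM in knockouts (log2 fold change -0.18, or 0.19 with library sizes alone). Eif1b and the X-linked Eif1ax were at 0.17 and -0.10, or 0.54 (adjusted p = 0.0179) and 0.27 with library sizes alone. Eif5, the GTPase-activating protein of eIF2, was scattered, at 335, 164 and 174 CPM in controls and 88.2, 186 and 202 CPM in knockouts. The groups overlapped, with a log2 fold change of -0.50 ± 0.37 (adjusted p = 0.331), or -0.14 with library sizes alone.

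The eIF2 subunits that carry initiator tRNA fell together with TMM factors. Eif2s2, the beta subunit, fell by 0.64 ± 0.11 (adjusted p = 0.00379), from 158.1, 164.8 and 130.8 CPM to 105.3, 97.2 and 89.2 CPM. Eif2s1, the alpha subunit that stress kinases phosphorylate, fell by 0.54 ± 0.11, and the X-linked gamma gene Eif2s3x fell by 0.47 ± 0.09. Its Y-linked copy Eif2s3y was at -0.16, and eIF2A and eIF2D, which act on alternative routes of initiation or reinitiation, were at -0.15 and -0.23. Under library sizes alone 0 of these 6 genes passed: the subunits that fell were at -0.27, -0.17 and -0.10, and Eif2s3y, Eif2a and Eif2d were at 0.20, 0.22 and 0.13. Eif2s3y passed without control replicate 3 (-0.28, adjusted p = 0.0473) and Eif2d without control replicate 2 (-0.34, adjusted p = 0.0418).

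Of the 5 eIF2B genes, 4 (80.0%) fell with TMM factors and 1 (20.0%) with library sizes alone, beside 18.0% and 6.60% of all tested genes. Eif2b4 is described above. Eif2b5, the catalytic epsilon subunit, fell by 0.47 ± 0.09 (adjusted p = 0.00425), from 57.2, 51.7 and 55.9 CPM to 41.5, 39.0 and 38.1 CPM, and was at -0.11 with library sizes alone. Eif2b1 fell by 0.46 (adjusted p = 0.0203) and Eif2b2 by 0.32 (adjusted p = 0.0314), but with library sizes alone they were at -0.09 and 0.05. Eif2b3 was at -0.24, or 0.13 with library sizes alone. The Eif2b1 call did not survive leaving out control replicate 2 (adjusted p = 0.0576), knockout replicate 1 (0.0641) or knockout replicate 2 (0.0728). The Eif2b2 call was lost without any library other than control replicate 3 (adjusted p from 0.0644 to 0.101). With no count filter its adjusted p was 0.0697. Within each library, Eif2b4 took 29.7%, 29.2% and 28.5% of the summed eIF2B FPKM in controls and 23.4%, 24.5% and 27.0% in knockouts. Eif2b2 took 20.7% ± 0.0650 and 23.4% ± 0.839, higher in all 3 knockouts than in any control (exact two-sided permutation p = 0.1 for each, the smallest that 3 against 3 allows).

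The 14 eIF3 genes, which encode the large scaffold on the small ribosomal subunit, did not move alike. With TMM factors 7 fell and 7 did not pass, and the median was -0.34. Library sizes alone gave 1 lower, 5 higher and a median of 0.02. Eif3c fell by 0.64 ± 0.10 (adjusted p = 0.00202), from 331.3, 344.4 and 323.4 CPM to 237.7, 213.4 and 189.3 CPM. Eif3d, which has cap-binding activity of its own, fell by 0.62 ± 0.10 (adjusted p = 0.00271), from 105.4, 114.7 and 107.7 CPM to 78.2, 72.7 and 62.9 CPM. Eif3b fell by 0.54 ± 0.08 (adjusted p = 0.00191), from 209.4, 238.7 and 233.0 CPM to 156.3, 160.0 and 151.8 CPM. None of these groups overlapped, and with library sizes alone the values were -0.27, -0.24 and -0.17, which did not pass.

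Eif3a, Eif3g and Eif3l fell by 0.47, 0.39 and 0.35 with TMM factors, and stood at -0.09, -0.02 and 0.02 with library sizes alone. Eif3e, Eif3f, Eif3h, Eif3i and Eif3k lay between -0.07 and -0.03 with TMM factors and did not pass, and rose by 0.29 to 0.34 with library sizes alone. Eif3f, for example, was at 110.3, 107.6 and 110.8 CPM in controls and 110.3, 103.2 and 109.3 CPM in knockouts, with overlap. Eif3m was at -0.18, or 0.19 with library sizes alone.

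Shares within the complex do not depend on scaling. Of the summed eIF3 FPKM, Eif3c took 17.8%, 18.0% and 17.1% in controls and 15.1%, 14.6% and 13.1% in knockouts. Eif3h took 17.4%, 15.0% and 16.0% in controls and 19.0%, 19.3% and 20.5% in knockouts. The order of the most abundant pair thus turned: Eif3c had the larger share in each control and Eif3h in each knockout. Eif3b, Eif3d and Eif3j1 also had lower shares in every knockout than in any control, and Eif3e, Eif3f, Eif3i and Eif3k higher ones (exact two-sided permutation p = 0.1 each, the smallest possible). Shares within a complex are tied, as a fall in some raises the others. The p-values of the eIF3 and eIF2B shares were not adjusted, and no such shares were computed for gene groups outside this set. Eif3f went from 7.05% ± 0.180 to 8.75% ± 0.363. The sum over the complex was 431.8, 431.6 and 434.1 FPKM in controls and 466.4, 434.3 and 408.2 FPKM in knockouts.

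**Figure D4:**
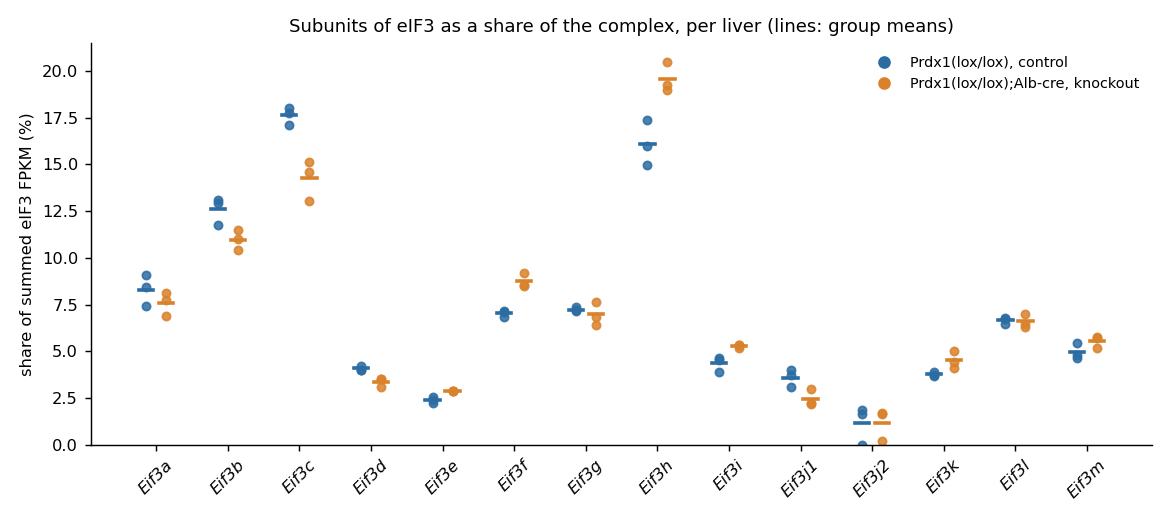
Share of the summed eIF3 FPKM (y axis, percent) taken by each of the 14 subunit genes (x axis), with 1 point per mouse and lines at the group means. The mean share of Eif3c is 17.6% in controls and 14.3% in knockouts, that of Eif3h is 16.1% and 19.6%, and Eif3j2 is scattered in both groups.

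For cap binding and unwinding, 5 of 11 genes (45.45%) fell and 0 rose with TMM factors, beside 18.0% and 19.9% of all tested genes. With library sizes alone 1 fell (9.09%) and 2 rose (18.2%), beside 6.60% and 34.1%. Eif4g2, an eIF4G relative without the eIF4E-binding region, fell by 0.60 ± 0.08 (adjusted p = 0.000846), from 644.1, 662.1 and 649.2 CPM to 432.5, 450.1 and 408.8 CPM. Library sizes alone gave -0.23 (adjusted p = 0.0641). Eif4a1, the main helicase gene, fell by 0.43 ± 0.08 (adjusted p = 0.00444), from 286.2, 286.0 and 274.3 CPM to 218.9, 214.2 and 195.1 CPM, and was at -0.06 with library sizes alone. Eif4e2, a cap-binding relative with a part in repression, fell by 0.44 (adjusted p = 0.0150), and was at -0.07 with library sizes alone.

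Eif4b, which stimulates the helicase, fell by 0.26 with TMM factors (adjusted p = 0.0262), and was at 0.11 with library sizes alone. Its call was lost when any library was left out: without control replicate 1 the adjusted p was 0.0519, without control replicate 2 it was 0.0661 and without control replicate 3 it was 0.0564. Without knockout replicates 1, 2 and 3 it was 0.0512, 0.0903 and 0.0610, and with no count filter 0.0584. Eif4a3, the helicase of the exon junction complex, was at -0.34 (adjusted p = 0.0539), or 0.03 with library sizes alone. It lay close to the threshold: the adjusted p was 0.0284 without control replicate 3, 0.0496 without knockout replicate 1, 0.0492 with DESeq2, 0.0484 with RLE factors and 0.0470 with counts divided by 4.

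Eif4g3 and Eif4a2, the second genes for eIF4G and eIF4A, differed from their partners. Eif4g3 was at 128.7, 118.4 and 134.7 CPM in controls and 139.1, 140.9 and 130.1 CPM in knockouts, with overlap. Its log2 fold change was 0.10 with TMM factors (adjusted p = 0.389) and 0.47 with library sizes alone (adjusted p = 0.00617). Eif4a2 was at 140.3, 141.9 and 132.8 CPM and at 140.7, 134.5 and 126.4 CPM, a log2 fold change of -0.05, or 0.32 with library sizes alone (adjusted p = 0.0236).

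The cap-binding gene Eif4e was uneven. It stood at 72.1, 75.0 and 29.2 CPM in controls and 41.2, 41.0 and 21.8 CPM in knockouts, and replicate 3 was the lowest in each group. The groups overlapped, with a log2 fold change of -0.76 ± 0.38 (adjusted p = 0.157), or -0.38 with library sizes alone. With TMM factors it passed without control replicate 3 (-1.08, adjusted p = 0.0230). Eif4h was at 237.8, 230.9 and 242.4 CPM in controls and at 203.4, 110.3 and 209.5 CPM in knockouts. Its log2 fold change was -0.44 ± 0.22 (adjusted p = 0.159), or -0.08 with library sizes alone, with knockout replicate 2 far below the others. Eif4e3 was at 0.04, or 0.41 with library sizes alone (adjusted p = 0.0667).

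Of the 4 genes for eIF4E-binding proteins and the transporter, Eif4ebp1 alone fell with TMM factors and 0 rose, and library sizes alone gave 1 lower and 1 higher. Eif4ebp2 was at 323, 271 and 361 CPM in controls and 300.2, 252 and 285 CPM in knockouts, with overlap and a log2 fold change of -0.19 (0.18 with library sizes alone). Eif4ebp3 was at 11.7, 17.5 and 16.1 CPM in controls and 16.2, 16.8 and 19.4 CPM in knockouts, with a log2 fold change of 0.21 (adjusted p = 0.380). With library sizes alone it was at 0.58 (adjusted p = 0.0244). Eif4enif1, which encodes the eIF4E transporter, was at -0.18, or 0.19 with library sizes alone.

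In the group of subunit joining, eIF5A and eIF6, 3 of 4 genes fell with TMM factors and Eif5a2 rose, while with library sizes alone 0 fell. Eif6, which keeps the large subunit from joining too early, fell by 0.57 ± 0.08 (adjusted p = 0.00137), from 141.2, 149.0 and 158.5 CPM to 98.5, 104.0 and 98.8 CPM. Eif5b, the GTPase of subunit joining, fell by 0.44 (adjusted p = 0.0101). Eif5a fell by 0.41 (adjusted p = 0.0218), from 430.3, 359.3 and 401.9 CPM to 335.8, 271.1 and 290.7 CPM. Library sizes alone put these genes at -0.21, -0.07 and -0.04. The Eif5a call did not survive leaving out control replicate 1 (adjusted p = 0.0762), control replicate 3 (0.0570), knockout replicate 2 (0.0824) or knockout replicate 3 (0.0643).

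Grouped by name with Eef1e1, the synthetase scaffold that fell, were 6 genes for elongation factor subunits. With TMM factors 0 of these 6 passed, and with library sizes alone 3 rose, where 34.1% of all tested genes rose. Eef1a1 was at 5066, 4907 and 5147 CPM in controls and 4559, 4384 and 4718 CPM in knockouts. Its groups did not overlap, yet the log2 fold change was -0.15 (adjusted p = 0.187), and 0.22 with library sizes alone (adjusted p = 0.0489). Eef2 was at 2296, 2314 and 2454 CPM in controls and 2246, 2076 and 2342 CPM in knockouts, a log2 fold change of -0.08, or 0.28 with library sizes alone (adjusted p = 0.0228). Eef1b2, Eef1d and Eef1g, for subunits of the complex that reloads eEF1A with GTP, were at -0.17, -0.19 and -0.11, or 0.20, 0.18 and 0.26 with library sizes alone. Eef1a2 was at 1.34, 0.496 and 0.274 CPM in controls and 0.840, 0.419 and 0.177 CPM in knockouts, with overlap.

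The lysine methyltransferases that modify elongation factors were low to middling in level. Together with Eef2k, 1 of 7 genes fell and 1 rose with TMM factors (14.3% each), near the 18.0% and 19.9% of all tested genes. With library sizes alone 0 fell and 2 rose (28.6%), beside 6.60% and 34.1%. Eef1akmt4 fell by 0.72 ± 0.14 (adjusted p = 0.00591), from 21.2, 17.8 and 21.1 CPM to 13.8, 11.98 and 10.6 CPM, and was at -0.35 with library sizes alone (adjusted p = 0.112). Eef1akmt3 was at 1.39, 3.08 and 2.72 CPM in controls and 1.36, 0.949 and 0.213 CPM in knockouts, a log2 fold change of -1.52 ± 0.64 (adjusted p = 0.103). It passed with DESeq2 (-1.51, adjusted p = 0.0480) and was at -1.13 with library sizes alone. Eef1akmt1 was at -0.37 (adjusted p = 0.0915), or -0.0043 with library sizes alone. Eef1akmt2 was at 0.31, or 0.68 with library sizes alone (adjusted p = 0.0185). Eef1aknmt and Eef2kmt were at -0.13 and -0.10, or 0.24 and 0.27 with library sizes alone.

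Ratios of 14 pairs of related genes were compared within each library. In 6 pairs the groups did not overlap, all with the higher ratio in knockouts. Some pairs share a gene, such as Eif4g1, and are not independent. The share of other gene pairs without overlap was not computed. Of single tested genes, 28.8% were higher and 24.2% lower without overlap in TMM-scaled CPM. The exact two-sided permutation p was 0.1 for each, the smallest that 3 against 3 allows, and 0.233 after Benjamini-Hochberg adjustment over the 14 ratios. Eif4g3 stood at 0.113, 0.105 and 0.119 of Eif4g1 in controls and 0.196, 0.206 and 0.203 in knockouts, a log2 difference of 0.84. Eif4a2 stood at 0.398, 0.402 and 0.393 of Eif4a1 in controls and 0.521, 0.509 and 0.526 in knockouts, a log2 difference of 0.38. The spread within each group was small beside these differences.

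Eif5a2 against Eif5a differed by 2.29 on the log2 scale, or by 0.90 with 0.5 FPKM added to both genes. Eef2k against Eef2 differed by 0.66, Eif1b against Eif1 by 0.36 and Eif4g2 against Eif4g1 by 0.14. The ratios of Eif4e2, Eif4e3 and the binding proteins to Eif4e overlapped between groups, with replicate 3 of each group the highest, as Eif4e itself was lowest there. The ratios of Eif2s3y to Eif2s3x, Eif4a3 to Eif4a1 and Eef1a2 to Eef1a1 overlapped too.

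**Figure D5:**
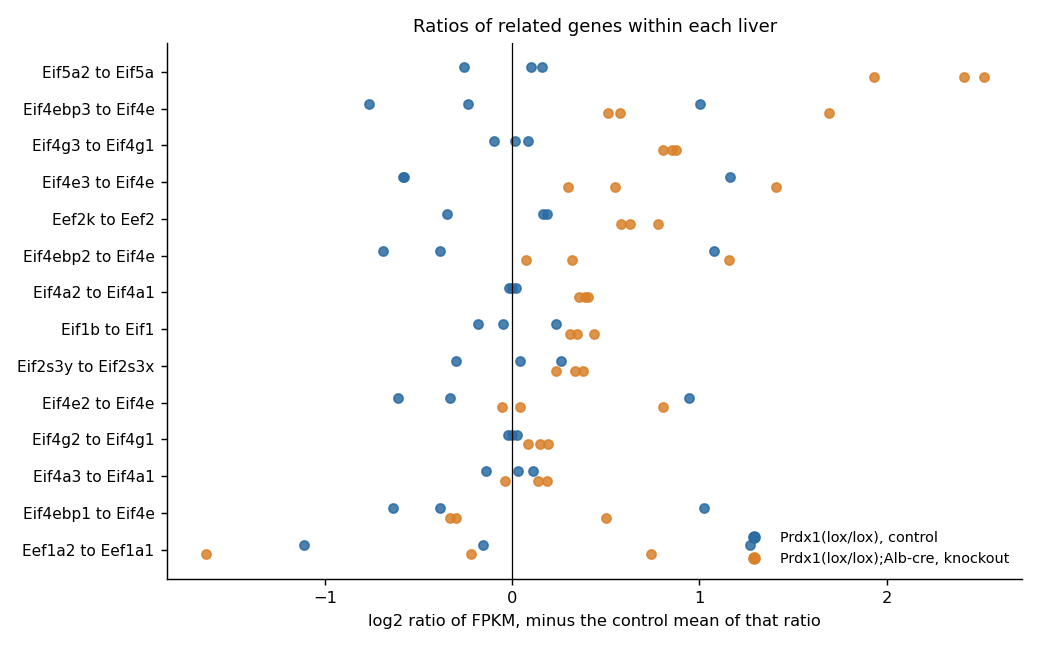
Log2 ratio of FPKM of 14 gene pairs, minus the control mean of the same ratio (x axis), with 1 point per mouse. In 6 pairs, led by Eif5a2 to Eif5a and Eif4g3 to Eif4g1, all knockout points lie to the right of the control points, while pairs with Eif4e spread widely in both groups.

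Of 42 other genes of the pathway, 27 fell and 4 rose with TMM factors, and 5 fell and 8 rose with library sizes alone. These are 64.3% lower and 9.52% higher with TMM factors, beside 18.0% and 19.9% of all tested genes. With library sizes alone they are 11.9% lower and 19.1% higher, beside 6.60% and 34.1%. The counts of each list below are to be read beside the same shares of all tested genes. Of 6 release and recycling genes, 5 fell and 1 rose, or 2 and 1 with library sizes alone. Gspt1, the release factor eRF3a, fell by 0.73 ± 0.08 (adjusted p = 0.000590), or 0.36 with library sizes alone. Abce1, which splits ribosomes after termination, fell by 0.72 ± 0.09, or 0.35 with library sizes alone. Etf1, the release factor eRF1, fell by 0.49 with TMM factors and was at -0.12 with library sizes alone.

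Mitochondrial translation factors had the lowest median of these lists, -0.57, with 7 of 9 lower (2 with library sizes alone). Tufm, the mitochondrial counterpart of eEF1A, fell by 0.94 ± 0.10 (adjusted p = 0.000422), from 104 ± 8.52 to 54.3 ± 4.36 CPM. The mitochondrial elongation factor gene Gfm1 fell by 0.84 ± 0.09, and Gfm2, the recycling counterpart, by 0.50. With library sizes alone they were at -0.57, -0.47 and -0.13, and Tufm and Gfm1 passed.

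Of the eIF2 alpha kinases and phosphatase subunits, 3 of 6 fell and 2 rose, or 1 and 2 with library sizes alone. Ppp1r15b, the constitutive subunit that targets the phosphatase to eIF2, fell by 0.63 ± 0.08 (adjusted p = 0.00102), or 0.26 with library sizes alone. Eif2ak4, the kinase GCN2 that senses uncharged tRNA, rose by 0.47 (adjusted p = 0.0183), and Eif2ak2, the kinase PKR that senses double-stranded RNA, rose by 0.38 (adjusted p = 0.0173). With library sizes alone these were at 0.84 and 0.75, and both passed. Eif2ak4 lost its call without control replicate 2 (adjusted p = 0.0550), knockout replicate 1 (0.0719) or knockout replicate 2 (0.0521). Eif2ak2 lost it without control replicate 1 (0.0539), knockout replicate 1 (0.0576) or knockout replicate 2 (0.0697). The other kinases on the list, Eif2ak3 and Eif2ak1, were lower, at -0.55 (adjusted p = 0.0217) and -0.26 (adjusted p = 0.038). With library sizes alone they were at -0.18 and 0.11 and did not pass. Their calls held in 4 and 1 of the 6 fits that left out a library.

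In the mTORC1 list 8 of 14 fell and 1 rose, but 0 fell and 3 rose with library sizes alone. Larp1, which binds mRNAs of the translation machinery, fell by 0.62, the mTOR inhibitor Deptor by 0.50 and the mTORC1 activator Rheb by 0.39 with TMM factors. Without scaling factors these 3 genes stood at -0.25, -0.13 and -0.02 and did not pass. Of 5 genes of poly(A) binding, 3 fell and 0 rose with TMM factors, and 0 fell and 2 rose with library sizes alone. Pabpc4 fell by 0.66, Paip1 by 0.49 and Paip2b by 0.45, and they were at -0.29, -0.12 and -0.08 with library sizes alone. Paip2b lost its call without control replicate 2 (adjusted p = 0.0648), knockout replicate 2 (0.0795) or knockout replicate 3 (0.0844). Dohh, which completes the hypusine of eIF5A, fell by 0.49 and was at -0.12 with library sizes alone, and Dhps, the enzyme of the preceding step, was at -0.15 (0.22 with library sizes alone).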

How the data were processed

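Liver RNA of 6 mice was sequenced, and the authors' deposited table holds estimated counts and FPKM values by gene and library, per the file headers. Per the labels' protocols, poly(A) RNA was made into libraries with dUTP-marked second strands and unique molecular identifiers. HISAT2 2.0.4, StringTie 1.3.4d, cutadapt 1.9, edgeR, DESeq2 and UMI-tools were used, and the build was mm9, per the submitters' processing notes. Their roles, the strand setting and the annotation are not given in the sources used here. Gene positions are printed as the table gives them. Of 55141 genes found in GENCODE M21, 94.2% had the same position in GRCm38, as did 57 of the 65 factor genes, so they were read as GRCm38. Per the file headers, columns are named wt or AlbCRE with a number, and wt was assigned to Prdx1(lox/lox) as the only other genotype.

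The deposited counts made by the authors were whole numbers but clustered at multiples of 4 (854 genes of control 1 at 4, against 280 at 3 and 167 at 5). They were therefore treated as estimated counts, and no counting intervals are given. The FPKM values deposited by the authors followed counts per library size and gene length.

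The counts were tested with edgeR 4.0.16 in R 4.3.3: filterByExpr (minimum count 10, minimum total 15), TMM factors, genotype as the only term and the two-sided quasi-likelihood test (glmQLFit, glmQLFTest). Benjamini-Hochberg adjustment of p-values ran over all 18931 tested genes, with a threshold of 0.05. CPM values use the TMM-scaled library sizes. Ratios and shares use FPKM and an exact permutation test. The gene tests were run on simulated data in which few genes changed and no scaling shift was set between the groups. That simulation could therefore not check the choice of scaling, and it did not cover ratios or shares. Alternatives were DESeq2 1.42.0, RLE factors, library sizes alone, no count filter, counts divided by 4, limma 3.58.1 on log2(FPKM + 0.5) and with pseudocounts of 1 and 0.1, a replicate block and leaving out each library. Shares within a complex and the sum of Eif3j1 and Eif3j2 were added after seeing the data.

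The genes, lists and tests were chosen with earlier results of these data known. Every gene the name rule found could be named, with values per library for up to 4 genes of smallest p in each role and for both genes of a ratio, and up to 3 genes of smallest p in each pathway list. Values per library of Eif4h, Eif3j2 and Eif3f were chosen after their values were seen. Eif2ak1 and Eif2ak3 were also named after their values were seen, to complete the kinases. No litter, batch or date is in the labels. They say that 3 mice per genotype were used, and p-values set the difference between the groups against the spread among these mice. Protein sequences were not analysed here.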

Additional observations from a re-analysis of the deposited data

How the results depend on the processing

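The number of factor genes that fell was 27 with TMM factors, 29 with DESeq2, 28 with RLE factors, 25 with no count filter and 28 with counts divided by 4, and 2 rose in each. With library sizes alone 6 fell and 15 rose. With limma on FPKM, 6 fell, and 10, 10 and 9 rose with pseudocounts of 0.5, 1 and 0.1. Leaving out each library gave 23 to 28 that fell and 1 to 2 that rose, with medians from -0.36 to -0.27. With the replicate number as a block, 26 fell and 2 rose. Under this block Eif2b1 (adjusted p = 0.0513) and Eif2b2 (0.0586) no longer passed, and Eif4e did (-0.70, adjusted p = 0.00945). Deviations of same-numbered libraries from their group means correlated at 0.013, 0.075 and 0.050, so the numbers were not taken to pair the mice. The number that rose was 2 or less wherever TMM, RLE or DESeq2 factors were used.

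Measured from the median of the genes tested in the main fit, the factor genes' median was at -0.38 with TMM factors. It was at -0.21, -0.16 and -0.32 with limma on FPKM and pseudocounts of 0.5, 1 and 0.1. The median of the factor genes itself was 0.0311 with library sizes alone and 0.0319, 0.0287 and 0.0329 with the limma settings, against -0.34. The sign also turned for the following genes, given as the log2 fold change with library sizes alone and then the values with limma on FPKM. Eef1a1 stood at 0.22 and 0.20, Eef1aknmt at 0.24 and 0.13, 0.16, 0.20, Eef1b2 at 0.20 and 0.18, Eef1d at 0.18 and 0.14, 0.15, and Eef1g at 0.26 and 0.24. Eef2 stood at 0.28 and 0.26, Eef2kmt at 0.27 and 0.20, 0.22, 0.24, Eif1 at 0.19 and 0.16, 0.17, Eif1ax at 0.27 and 0.22, 0.23, 0.24, and Eif2a at 0.22 and 0.18, 0.19, 0.20. Eif2b2 stood at 0.0523 and 0.0307, 0.0319, 0.0329, Eif2b3 at 0.13 and 0.0748, 0.0913, 0.11, Eif2d at 0.13 and 0.11, 0.12, and Eif2s3y at 0.20 and 0.18, 0.19, 0.20. Eif3e stood at 0.30 and 0.26, 0.27, 0.28, Eif3f at 0.34 and 0.31, 0.32, Eif3h at 0.31 and 0.29, Eif3i at 0.31 and 0.28, 0.29, and Eif3k at 0.29 and 0.26, 0.27. Eif3j2 stood at 0.0321 and 0.26, 0.44, 1.04, Eif3l at 0.0151 (library sizes alone), and Eif3m at 0.19 and 0.16, 0.17. Eif4a2 stood at 0.32 and 0.29, 0.30, Eif4a3 at 0.0301 and 0.0105, 0.0108, 0.011, Eif4b at 0.11 and 0.0844, 0.0849, 0.0854, Eif4ebp2 at 0.18 and 0.16, 0.17, and Eif4enif1 at 0.19 and 0.15, 0.16, 0.17. Dhps stood at 0.22 and 0.17, 0.19, 0.20. Neither library sizes alone nor limma on FPKM uses TMM factors. Without these factors the median of all tested genes was 0.41 (library sizes alone) in place of 0.05. Why the factors differed between the groups was not tested. Leaving out each library turned the sign of 5 genes that did not pass the test, with ranges of -1.22 to 0.31 for Eef1a2, -0.0403 to 0.0012 for Eif3f, -0.92 to 0.18 for Eif3j2, -0.12 to 0.0031 for Eif3k and -0.0399 to 0.20 for Eif4e3. None of these genes passed the test with TMM factors except Eif2b2, Eif3l and Eif4b.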

Other observations

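Names marked -ps, which mark pseudogenes in mouse nomenclature and were left out by the name rule, also had counts, in 10 entries. Eif4a-ps4 was the highest, at 74.5 ± 5.34 CPM in controls and 54.8 ± 4.72 CPM in knockouts (SD, n = 3 each), without overlap. Its log2 fold change was -0.44 ± 0.10 (adjusted p = 0.0106 by edgeR's quasi-likelihood test), or -0.07 with library sizes alone, beside -0.43 for Eif4a1. Eef1a1-ps1 was at 21.2 ± 1.54 and 21.1 ± 1.94 CPM, and Eef2-ps2 at 7.48 ± 1.38 and 6.92 ± 0.648 CPM, both with overlap. Reads of a gene and a near-identical copy may be divided between entries, and whether these counts came from the copies was not tested.

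Gspt2, a second gene for the release factor eRF3, was chosen after its value was seen. It was at 0.553, 0.496 and 0.856 CPM in controls and 3.60, 3.14 and 1.82 CPM in knockouts, without overlap, while Gspt1 fell. Its log2 fold change was 2.16 ± 0.40 (adjusted p = 0.00420), or 2.54 with library sizes alone. Like Eif5a2, it was a scarce second gene of a factor whose main gene was lower in knockouts with TMM factors. The Eif5a call, however, held in only 2 of 6 fits that left out a library, and Eif5a was at -0.04 with library sizes alone. Eef1a2, also a scarce second gene, did not rise (log2 fold change -0.56 with TMM factors, did not pass).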
